A study of Homo sapiens with 4 samples.

Results

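Of the 29119 transcripts in the long noncoding RNA table, 2610 carried identifiers that begin with TCONS, the prefix an assembler gives to a transcript pieced together from the reads. The other 26509 carried annotated identifiers. All rows with the TCONS prefix were taken as members and described in 4 libraries, 1 from each group. The labels name the cells as HepG2 and Huh7, which are human liver cancer lines. The cells were either untreated or exposed for 24 h to RSL3@O2-ICG NBS with low-frequency ultrasound. RSL3 is a small-molecule inhibitor of GPX4, the enzyme that reduces lipid hydroperoxides. No library of ultrasound alone, of the carrier alone or of RSL3 alone was analysed here, so the parts of the treatment cannot be told apart. The values were FPKM, fragment numbers scaled to transcript length and library size, as the authors deposited them. With 1 library per group no value has a replicate error and no test was possible within a line.

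The label of the first line was checked against 12 hepatocyte genes that include ALB, AFP and HNF4A. In both HepG2-labelled libraries, 0 of the 12 reached 1 FPKM, and their summed level was 0.599 and 0.468 FPKM. In both Huh7 libraries 12 of 12 did, with sums of 1865 and 1438 FPKM. The housekeeping gene GAPDH was at 3623 to 4320 FPKM in the 4 libraries. The first pair is therefore called the HepG2-labelled libraries throughout.

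Long noncoding RNAs are transcripts without a long reading frame, made by RNA polymerase II and often capped and spliced like messenger RNA. An assembler that finds reads outside known transcript models joins them into new models, and a filter on coding potential then sorts these into coding and noncoding. Models inside a coding gene can be alternative or unspliced forms of its messenger RNA, models on the other strand are antisense RNAs, and models away from genes are intergenic RNAs. Stretches of satellite repeats at centromeres are transcribed at low levels in many cells, and reads from repeats are hard to place.

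The names split the members into 3 classes. A coding gene's name with the ending OT was carried by 1120 members, under 905 gene names. An assembler's locus name with an antisense label was carried by 358 members, each labelled with the Ensembl identifier of a coding gene. An assembler's locus name with a LINC label was carried by 1132. The files define none of these labels and give no strand or exon positions, only each member's first and last base. Positions are GRCh38 coordinates, since 25722 of the 25810 annotated transcripts found in GENCODE 29 (99.7%) had the same first and last base there.

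Of the 1120 members named for a coding gene, 866 matched a promoter window of that gene in RefSeq (250 bases before the start to 50 after it, build GRCh38.p14). No strand is listed for a member, so each was assumed to lie on the strand of its named gene. On that assumption 237 of the 866 (27.4%) had their 5′ end inside the window. Below are the windows of 5 such members whose values are central to the treatment results. All 5 genes are on the plus strand, and capitals run from the first listed base of the member to the end of the window.
DGUOK-OT1, chr2:73926630-73926929: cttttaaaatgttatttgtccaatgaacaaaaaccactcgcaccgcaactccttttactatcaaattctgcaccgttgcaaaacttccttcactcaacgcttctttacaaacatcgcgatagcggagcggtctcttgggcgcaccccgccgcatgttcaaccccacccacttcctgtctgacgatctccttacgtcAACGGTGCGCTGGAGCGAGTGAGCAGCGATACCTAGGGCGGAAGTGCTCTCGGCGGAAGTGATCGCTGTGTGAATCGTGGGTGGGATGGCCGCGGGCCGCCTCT
MOCOS-OT1, chr18:36187247-36187546: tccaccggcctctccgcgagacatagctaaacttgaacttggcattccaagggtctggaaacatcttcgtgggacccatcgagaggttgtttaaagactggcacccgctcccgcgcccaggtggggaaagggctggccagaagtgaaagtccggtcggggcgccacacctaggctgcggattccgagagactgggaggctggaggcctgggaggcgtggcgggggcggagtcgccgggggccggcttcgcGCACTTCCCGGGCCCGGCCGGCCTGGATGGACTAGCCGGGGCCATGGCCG
KDM2A-OT1, chr11:67119013-67119312: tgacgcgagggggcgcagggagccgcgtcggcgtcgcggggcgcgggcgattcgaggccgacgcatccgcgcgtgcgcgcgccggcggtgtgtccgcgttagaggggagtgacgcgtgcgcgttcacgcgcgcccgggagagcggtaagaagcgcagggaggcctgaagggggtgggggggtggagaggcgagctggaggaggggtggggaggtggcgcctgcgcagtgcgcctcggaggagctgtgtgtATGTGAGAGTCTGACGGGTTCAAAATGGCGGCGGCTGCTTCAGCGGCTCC
RCC1-OT1, chr1:28505793-28506092: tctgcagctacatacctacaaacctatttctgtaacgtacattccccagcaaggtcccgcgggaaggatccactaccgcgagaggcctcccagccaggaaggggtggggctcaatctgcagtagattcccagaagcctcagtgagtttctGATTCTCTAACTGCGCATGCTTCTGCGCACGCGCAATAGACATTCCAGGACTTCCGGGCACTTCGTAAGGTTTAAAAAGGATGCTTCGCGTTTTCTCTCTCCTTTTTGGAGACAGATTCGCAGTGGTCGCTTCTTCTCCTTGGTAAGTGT
NUDT4-OT1, chr12:93377675-93377974: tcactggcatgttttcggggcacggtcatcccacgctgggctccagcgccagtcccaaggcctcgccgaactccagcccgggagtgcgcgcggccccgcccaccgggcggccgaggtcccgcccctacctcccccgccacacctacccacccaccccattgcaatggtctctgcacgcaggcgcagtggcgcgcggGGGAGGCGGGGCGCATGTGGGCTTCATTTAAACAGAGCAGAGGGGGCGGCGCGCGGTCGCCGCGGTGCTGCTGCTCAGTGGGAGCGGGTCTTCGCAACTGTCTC

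MOCOS-OT1 and KDM2A-OT1 began at the RefSeq start itself, DGUOK-OT1 and NUDT4-OT1 began 54 bases before it, and RCC1-OT1 began 100 bases before it. Guanine and cytosine made up 54.0% of the DGUOK window, 67.0% of MOCOS, 72.7% of KDM2A, 51.7% of RCC1 and 71.3% of NUDT4. The median was 67.8% over the 232 different windows that held the start of a member and 58.7% over all 34943 windows. Both strands were searched for the TATA motif TATAAA, the CCAAT motif, the GC box GGGCGG, the antioxidant response core TGACNNNGC and the ATF4 response core TGATGNAA. The GC box was in the windows of DGUOK, MOCOS and NUDT4, against 44.9% of all windows and 72.8% of those that held a member's start. CCAAT was found in the DGUOK window and in 34.6% of all windows. The antioxidant response core was found in the NUDT4 window and in 13.3% of all windows. TATAAA and TGATGNAA were in none of the 5, and in 11.6% and 3.62% of all windows. A further window searched but not shown, that of RNF181-OT1, held CCAAT and the antioxidant response core and none of the other motifs. The motifs describe letters only.

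Most members were low. A level of 1 FPKM or more was reached in at least 1 library by 855 of 2610 members (32.8%), against 5.10% of the annotated transcripts. An assembled model needs reads to exist and an annotated one does not, so the shares are not like for like. Of the annotated transcripts, 15208 were at 0 in every library. The numbers at that level were 261 and 373 in untreated and treated HepG2-labelled cells, and 404 and 513 in untreated and treated Huh7. Annotated transcripts moved the same way, from 554 to 750 and from 580 to 783. The number at 10 FPKM or more was 13, 16, 32 and 41 in the same order. All of the 35 members listed at 0 in every library carried a coding gene's name.

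The classes differed in where they were detected. Members named for a coding gene numbered 151, 213, 147 and 211 at 1 FPKM or more in untreated and treated HepG2-labelled cells and the Huh7 pair. Antisense-labelled members numbered 64, 84, 44 and 56. LINC-labelled members numbered 46, 76, 213 and 246, with both Huh7 numbers above both others, which was the case in neither of the other classes.

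**Figure D1:**
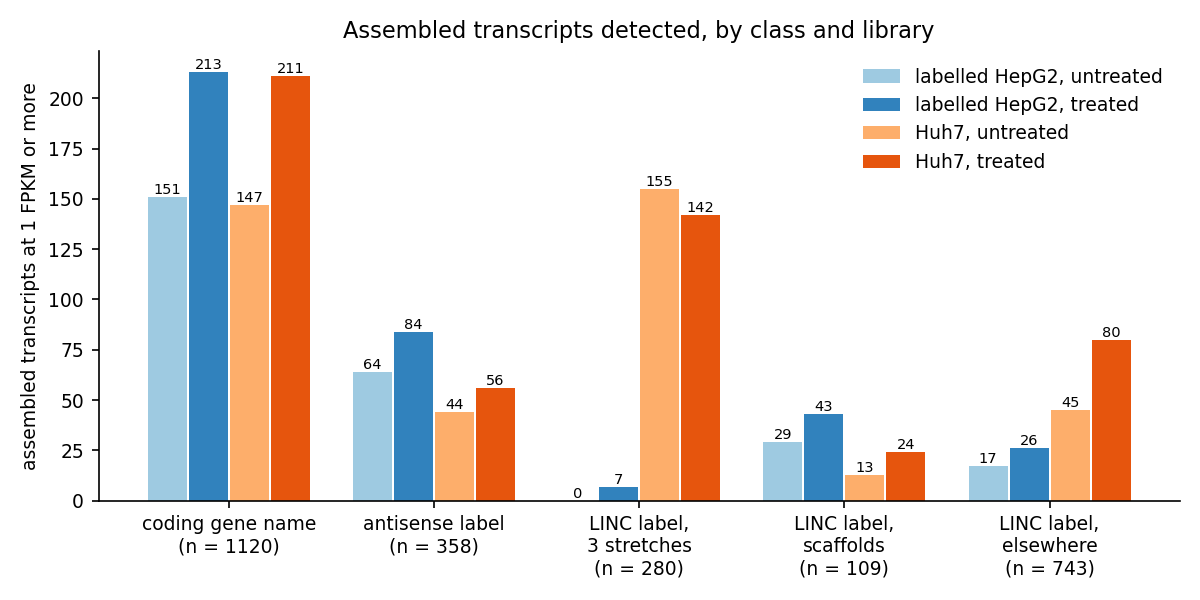
Bars give the number of assembled transcripts at 1 FPKM or more (vertical axis) in each of the 4 libraries, for members named for a coding gene, members with an antisense label, and LINC-labelled members by place; n is the size of each class. The LINC-labelled members of 3 gene-poor stretches stand at 0 and 7 in the HepG2-labelled libraries and at 155 and 142 in Huh7.

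Some LINC-labelled members lay close together, while most were dispersed. Stretches of at least 3 adjacent bins of 1 Mb with 5 or more such members each were found on chr1:121635191-123831270, chr5:46518699-49648877 and chr19:24848183-27165309, and held 29, 107 and 144 members. These lie at the centromeres of the 3 chromosomes, which GRCh38 fills with modelled satellite arrays, and GENCODE 29 places 0 genes in them. A further 109 members lay on 32 scaffolds outside the assembled chromosomes, and the other 743 lay elsewhere, under 666 locus names. Only 17 of the 1132 overlapped a GENCODE gene at all, and the 743 elsewhere were a median of 52021 bases from the nearest coding gene.

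The 3 stretches were at higher levels in Huh7 than in the HepG2-labelled libraries. On chromosome 5 the summed level was 3.23 and 23.5 FPKM in untreated and treated HepG2-labelled cells, and 514 and 527 FPKM in untreated and treated Huh7. On chromosome 19 it was 0, 0.803, 291 and 273 FPKM, and on chromosome 1 it was 0.109, 0.273, 43.0 and 50.9 FPKM. Both Huh7 libraries were therefore above both HepG2-labelled libraries in all 3 stretches. A single locus on chromosome 5, chr5:49609715-49646608, held 23 members and most of that sum, with 3.06, 18.3, 341 and 341 FPKM. Its highest member, LINC884 at chr5:49630730-49646608, was at 0.509, 0.588, 58.7 and 61.6 FPKM. Members of 1 locus share sequence and reads, so they are not separate observations.

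Scaffolds behaved otherwise. The 22 members on scaffold GL000225.1 summed to 48.7 and 61.5 FPKM in untreated and treated HepG2-labelled cells, and were listed at 0 in both Huh7 libraries. LINC47 on that scaffold was at 5.35 and 6.59 FPKM, and LINC21 on GL000216.2 at 5.79 and 9.61 FPKM, both listed at 0 in Huh7. In contrast, LINC100 on KI270721.1 was at 2.44, 0, 8.11 and 7.55 FPKM. The members on KI270317.1 summed to 0.151, 0.315, 20.6 and 23.6 FPKM, higher in Huh7 as in the stretches. Those on KI270538.1 did likewise, with 0, 0.0836, 7.86 and 9.09 FPKM. Over all scaffold members the sums were 93.4, 136, 69.0 and 91.3 FPKM. Zeros were spelled in 2 ways in the table, and in none of the 4824 loci by library with the short form did another value occur beside it, so a locus can be listed at 0 as a whole. Whether a listed 0 is an absent transcript or a failed estimate was not tested.

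**Figure D2:**
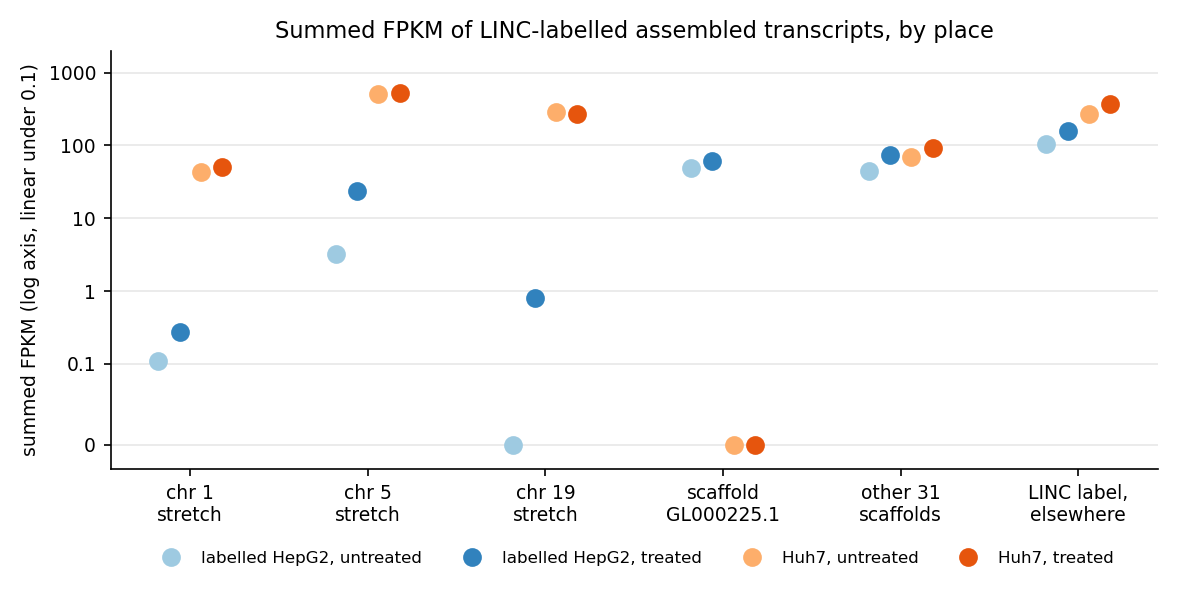
Points give the summed FPKM of LINC-labelled assembled transcripts (vertical axis, logarithmic and linear under 0.1) in each library for the 3 gene-poor stretches, scaffold GL000225.1, the other 31 scaffolds and all other places. Both Huh7 points lie above both points of the HepG2-labelled libraries in the 3 stretches, and the order is turned round on GL000225.1.

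Among untreated cells, members were more often higher in Huh7 than lower. Of 553 members at 1 FPKM or more in 1 of the untreated libraries, 248 (44.8%) were higher in Huh7 by 2-fold or more and 95 (17.2%) lower by as much, where the same rule over all rows of the table gave 30.0% and 18.3%. Ratios were log2((FPKM + 1)/(FPKM + 1)), a scale that understates the change of low transcripts. In the 3 stretches 155 members reached 1 FPKM in untreated Huh7 and 0 in untreated HepG2-labelled cells, so the minimum fixed their direction. LINC-labelled members elsewhere were higher in 37 and lower in 13 of 59, with 45 at 1 FPKM or more in untreated Huh7 and 17 in untreated HepG2-labelled cells. On scaffolds 11 of 40 were higher and 25 lower. In both places nearly all members met the minimum in 1 library only, so these splits largely repeat the numbers detected. Antisense-labelled members were higher in 10 and lower in 19 of 81, and members with a coding gene's name were higher in 37 and lower in 38 of 218. Without the stretches and scaffolds, 84 members of all classes were higher in Huh7 in place of 248.

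The extremes of the other classes named single loci. CREB3L1-OT1, named for a membrane-bound transcription factor of the endoplasmic reticulum, was listed at 0 in both HepG2-labelled libraries and was at 4.13 and 8.31 FPKM in untreated and treated Huh7. LGSN-OT1, named for the lens protein lengsin, was likewise listed at 0 there, and in Huh7 at 3.80 and 7.34 FPKM, where the gene was at 8.27 and 14.3 FPKM. HIST1H2AG-OT1, at chr6:27132334-27146845 in a histone cluster, had the opposite order, with 8.82 and 26.8 FPKM in the HepG2-labelled libraries and listed zeros in Huh7. HLA-C-OT1, named for a class I histocompatibility gene, was at 5.20, 5.62, 0.195 and 0.581 FPKM, while HLA-C itself was at 68.4 and 69.0 FPKM in the HepG2-labelled libraries and 8.56 FPKM in untreated Huh7. The 12 hepatocyte genes separated the same libraries, and the part of sample identity in these differences was not tested.

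After treatment, members moved about as often as the rest of the table. In the HepG2-labelled libraries, 65 of 435 members (14.9%) were higher by 2-fold or more and 22 (5.06%) lower by as much, against 13.5% and 5.25% over all rows. In Huh7, 60 of 613 (9.79%) were higher and 37 (6.04%) lower, against 10.3% and 5.49%. The median log2 ratio of the members was 0.31 and 0.17, beside 0.31 and 0.23 over all rows. These shares are near the background and set the members as a whole apart in neither line. Of the stretch members, 7 reached 1 FPKM in treated HepG2-labelled cells and 0 in untreated ones, so the minimum fixed their direction there. In Huh7, 11 of 176 stretch members were higher and 15 lower.

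Few members changed alike in both lines. Of the 193 at 1 FPKM or more in both lines, 5 were higher by 2-fold or more in each (2.59%, background 2.89%), 3 were lower by as much in each (1.55%, background 0.913%) and 0 were 2-fold opposite. The 2 ratios had a Pearson r of 0.45 and a Spearman rho of 0.38 across these 193 members, some of which share a locus, and r was 0.37 without the most extreme of them. As a description, 130 of the 193 had the same sign, near the 431 of 657 over all rows, where 6 were 2-fold opposite.

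The 4 members with a coding gene's name that were higher in both lines were low in untreated cells. DGUOK-OT1 (chr2:73926826-73958961), named for mitochondrial deoxyguanosine kinase, was at 3.56 and 11.96 FPKM in untreated and treated HepG2-labelled cells, and listed at 0 and at 6.34 FPKM in Huh7. MOCOS-OT1 (chr18:36187497-36193618), named for molybdenum cofactor sulfurase, was at 3.89 and 15.8 FPKM, and in Huh7 at 0.314 and 4.39 FPKM. In each case both treated libraries were above both untreated ones. RNF185-OT1 (chr22:31160182-31207019), named for a ubiquitin ligase of the endoplasmic reticulum, was at 0.478 and 6.66 FPKM, and in Huh7 at 0.515 and 5.02 FPKM. KDM2A-OT1 (chr11:67119263-67149563), named for a histone lysine demethylase, was at 0.209 and 1.49 FPKM, and in Huh7 at 1.51 and 7.72 FPKM. For KDM2A-OT1 the treated HepG2-labelled library was just below untreated Huh7, and with size factors its log2 ratio there was 0.98, under 2-fold. The member with a LINC label that was higher in both was LINC878, one of the 23 of the chromosome 5 locus, at 0.180, 1.65, 1.34 and 5.05 FPKM.

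The lower ones were led by an antisense-labelled member. ENSG00000180573-AS2 (chr6:26124132-26138371), labelled as antisense to the histone gene HIST1H2AC, was at 66.2 and 7.13 FPKM in untreated and treated HepG2-labelled cells, and in Huh7 at 31.9 and 0.829 FPKM. RCC1-OT1 (chr1:28505943-28508762), named for the exchange factor of the GTPase Ran, was at 5.32 and 0.343 FPKM, and in Huh7 at 3.20 and 0.684 FPKM. CDC42SE2-OT3 (chr5:131287657-131394690), named for a small effector of CDC42, was at 4.45 and 0.546 FPKM, and in Huh7 at 3.37 and 0.0241 FPKM. In all 3, both untreated libraries were above both treated ones.

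**Figure D3:**
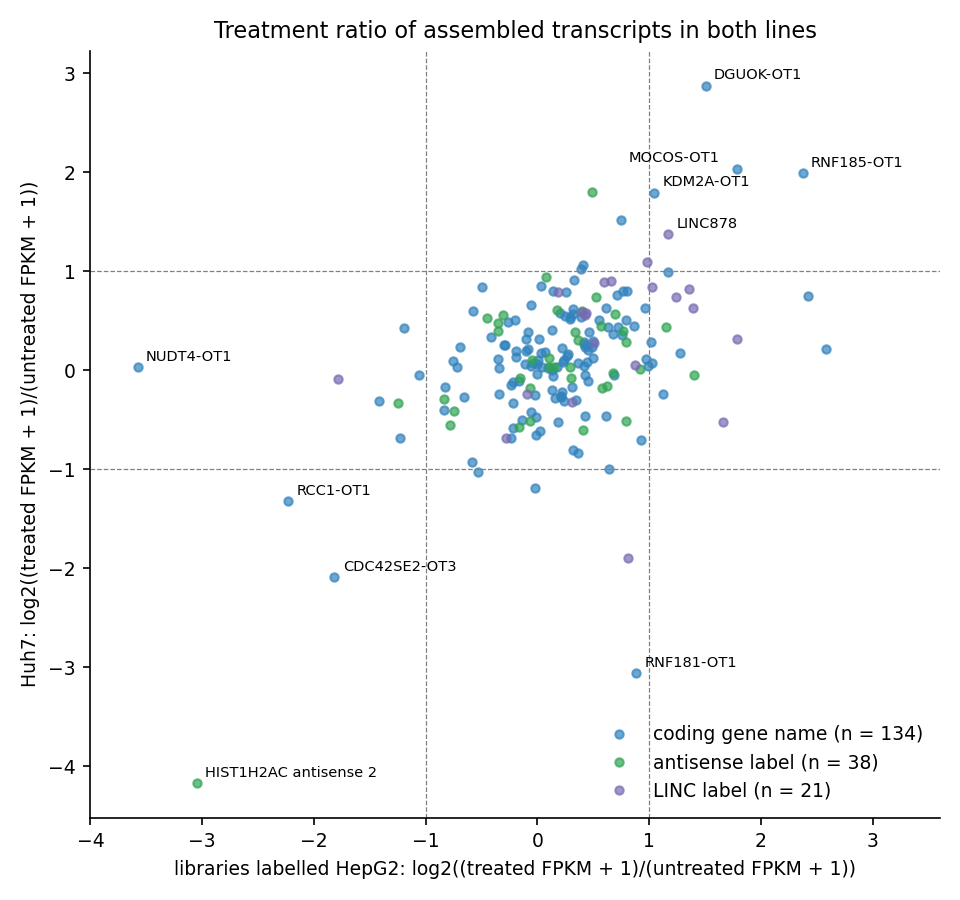
Each point is 1 of the 193 assembled transcripts at 1 FPKM or more in both lines, with its log2((treated FPKM + 1)/(untreated FPKM + 1)) in the HepG2-labelled libraries (horizontal axis) and in Huh7 (vertical axis); dashed lines mark 2-fold. Named in the corners are the 5 members higher and the 3 lower in both lines, and NUDT4-OT1 and RNF181-OT1, which moved past 2-fold in 1 line.

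Other members were past 2-fold in 1 line, and the difference between the lines was not tested. NUDT4-OT1 (chr12:93377871-93387981), named for a diphosphoinositol polyphosphate phosphatase, was at 11.8 and 0.0693 FPKM in untreated and treated HepG2-labelled cells, and in Huh7 at 14.95 and 15.3 FPKM. RNF181-OT1 (chr2:85595756-85597613), named for a ubiquitin ligase, was at 4.65 and 9.43 FPKM, and in Huh7 at 8.83 and 0.180 FPKM. ZMYM4-OT1 was at 0.0131 and 5.07 FPKM, and in Huh7 at 3.004 and 3.63 FPKM. PDLIM5-OT1 was under 0.01 FPKM in all libraries but treated Huh7, where it was at 5.08 FPKM. LINC1120 (chrX:62496151-62498513), 848715 bases from the nearest coding gene SPIN4, was at 0.235 and 0 FPKM, and in Huh7 at 4.20 and 28.0 FPKM.

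RPS29-OT1 had the largest ratio of all members, in Huh7. It was at 0.484 and 0.0609 FPKM in the HepG2-labelled libraries, and in Huh7 at 0.605 and 123 FPKM. Its extent, chr14:49580454-49586877, overlaps that of RN7SL1 (chr14:49586580-49586878), the RNA of the signal recognition particle, which was listed at 48854, 55272, 68153 and 76150 FPKM. The gene RPS29, a ribosomal protein of the small subunit, was at 2879 and 1601 FPKM, and in Huh7 at 1605 and 7811 FPKM. The part of RN7SL1 reads in the RPS29-OT1 value was not tested.

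Members with a coding gene's name were parts of that gene's own deposited value. The gene was found in the coding table for 1110 of the 1120 members, under 897 genes. All of the 1110 lay inside the locus the coding table lists, although 566 reached past the ends of the GENCODE gene. In 0 of the 1110 did the member exceed its gene in any library, and the summed members exceeded the gene by 1e-06 FPKM at most. A comparison of such a member with its gene is thus one of a part with the whole that contains it, and the remainder, the gene less the sum of its members, was used beside it.

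The share of the gene that its members held was small for most genes and nearly complete for a few. Over genes at 1 FPKM or more the median share was 4.40%, 6.35%, 5.75% and 7.66% in untreated and treated HepG2-labelled cells and the Huh7 pair. In the same order 62, 69, 60 and 76 genes took at least 50% of their value from assembled members. Of 586 genes at 1 FPKM or more in all 4 libraries, 26 were at 50% or more in every library and 16 at 90% or more. TRABD2A, a membrane metalloprotease that cleaves Wnt proteins, was at 133, 143, 120 and 99.5 FPKM, of which its 2 members held 90.9%, 90.8%, 99.4% and 99.5%. TSACC, a co-chaperone of a testis kinase, was at 35.8, 19.6, 28.4 and 21.7 FPKM, with 96.2% or more from its 2 members. ARL10, a small GTPase of the ARF family, had 91.3% or more from its single member. The muscarinic receptor gene CHRM5 was at 3.91, 8.64, 3.26 and 3.62 FPKM, and its single member held 99.6% or more. MORN5 was at 5.29, 5.26, 4.10 and 4.32 FPKM and equal to its member in all 4 libraries. For GPER1, a membrane receptor for estrogen, the member's share was 53.7% and 57.9% in the HepG2-labelled libraries, and 87.7% and 95.9% in Huh7. A member can also overlap a neighbouring gene. The part of neighbouring genes' reads in the values of these members was not tested, so a share need not be expression of the named gene.

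**Figure D4:**
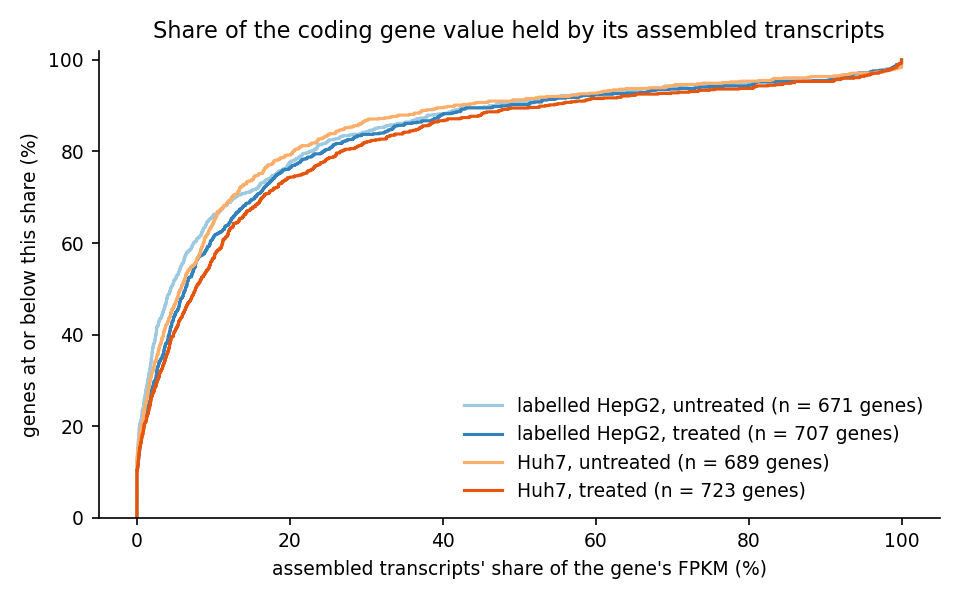
Lines give, for each library, the percentage of genes (vertical axis) whose assembled transcripts held at most a given share of the deposited gene FPKM (horizontal axis), over genes at 1 FPKM or more. The 4 lines rise together, with medians of 4.40% to 7.66%, and a small group of genes ends near 100%.

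Against the gene as deposited, members moved in its direction more often than against it. In the HepG2-labelled libraries, 47 of 246 members with both values at 1 FPKM or more were past 2-fold, 34 in the gene's direction and 13 against it. In Huh7 it was 34 of 243, 25 with the gene and 9 against it. The background for transcripts past 2-fold either way was 18.8% of the long noncoding table in the HepG2-labelled libraries and 15.8% in Huh7, and for genes 9.14% and 6.07% of the coding table. Against the remainder the split was 29 with and 16 against in the HepG2-labelled libraries, and 15 with and 19 against in Huh7. Across members the Pearson r with the gene was 0.40 and 0.48, and with the remainder 0.0056 and 0.19. In Huh7, without RPS29-OT1, these values were 0.42 and 0.064. Members of 1 gene share that gene's value, and member and gene share libraries and reads.

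Single genes showed what the parts did. NUDT4 was past 2-fold lower in the HepG2-labelled libraries, with 17.1 and 7.69 FPKM, while its remainder was at 5.31 and 7.62 FPKM. CDC42SE2 was at 6.08 and 8.02 FPKM there, while its remainder was at 1.40 and 6.42 FPKM. SLC26A7, an anion exchanger, was at 1.63 and 0.158 FPKM in Huh7, and its remainder at 0.124 and 0.113 FPKM. KDM2A changed little, with 32.2 and 31.2 FPKM in the HepG2-labelled libraries and 124 and 119 FPKM in Huh7. KDM2A-OT1 was higher after treatment in both, but KDM2A-OT2 had log2 ratios of -1.19 in the HepG2-labelled libraries and 0.43 in Huh7. In Huh7 the log2 ratio was 0.94 for CDC42SE2-OT1 and -2.09 for CDC42SE2-OT3. RCC1-OT2 moved with RCC1-OT1, at -1.42 in the HepG2-labelled libraries and -0.32 in Huh7. DGUOK was at 56.0 and 73.5 FPKM, and in Huh7 at 59.0 and 48.9 FPKM, so that its direction differed between the lines while that of DGUOK-OT1 did not. RNF185 was at 10.0 and 17.1 FPKM, and in Huh7 at 6.003 and 27.1 FPKM, with remainders of 9.55, 10.5, 5.49 and 22.1 FPKM. Of the 54 and 53 genes with members that were past 2-fold in the HepG2-labelled libraries and in Huh7, 5 and 9 were not past it as a remainder, and 9 and 6 others were past it only as a remainder.

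**Figure D5:**
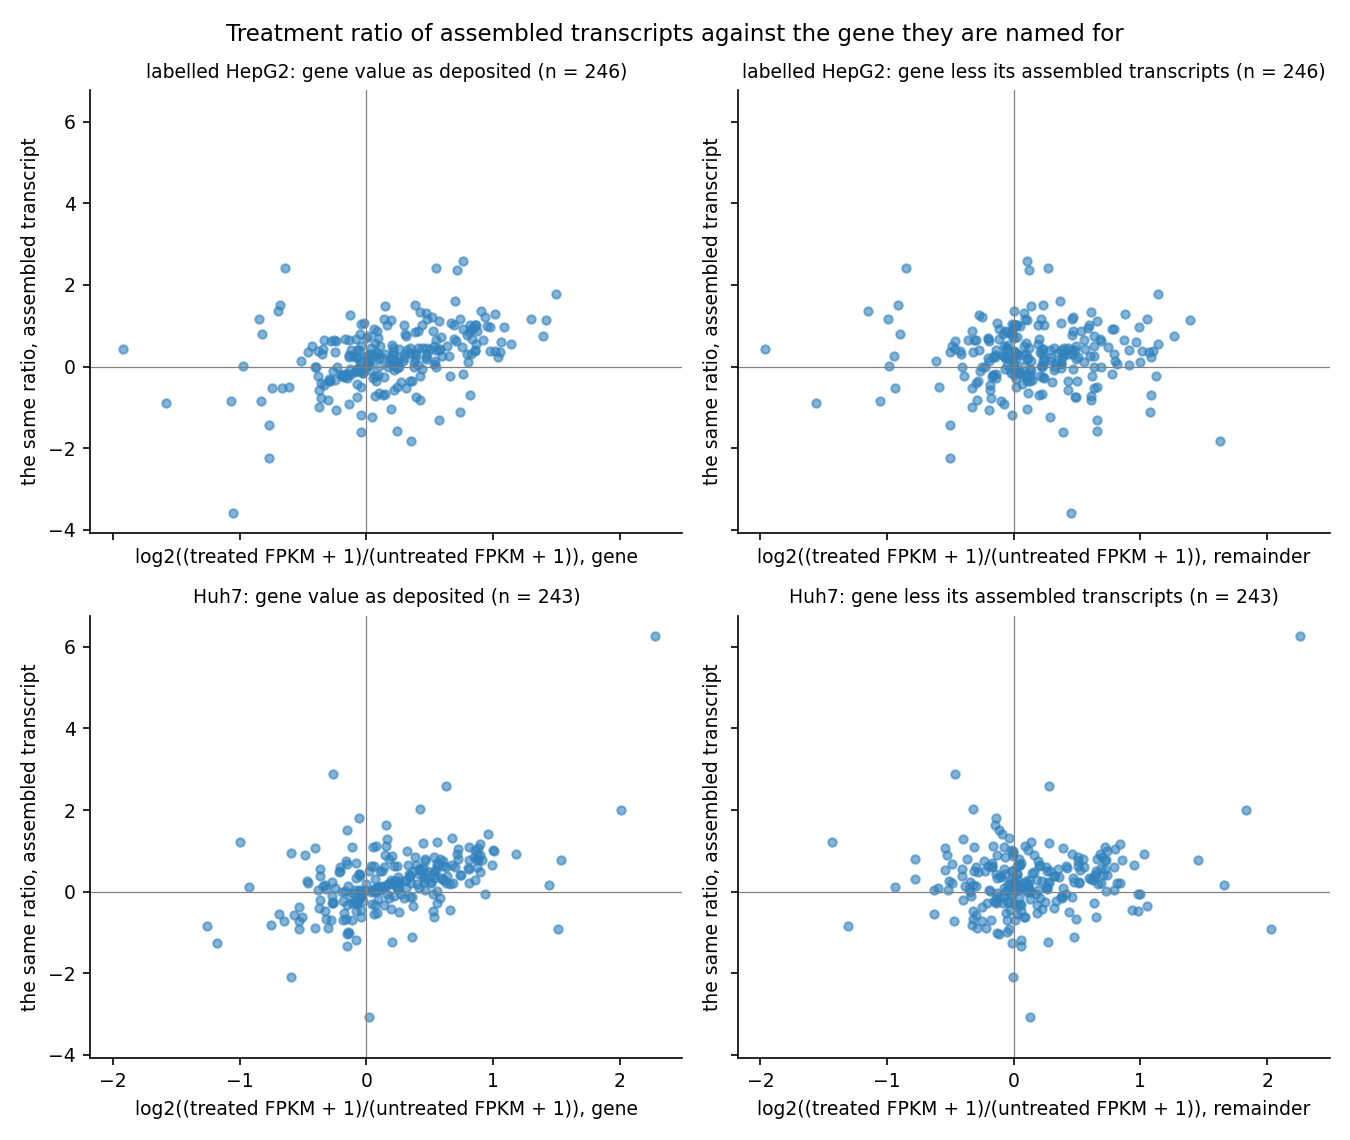
Each point is an assembled transcript named for a coding gene, with its log2((treated FPKM + 1)/(untreated FPKM + 1)) on the vertical axis and that of the gene (left) or of the gene less its assembled transcripts (right) on the horizontal axis, for the HepG2-labelled libraries (top, n = 246) and Huh7 (bottom, n = 243). Pearson r was 0.40 and 0.48 on the left and 0.0056 and 0.19 on the right.

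The antisense-labelled members could exceed the gene they are labelled for, their partner. All 358 partners were in the coding table, and the member was above its partner for 32 to 36 of the 358 in each library. In the HepG2-labelled libraries, 20 of 90 such members with both values at 1 FPKM or more were past 2-fold (22.2%, background 18.8%). These 20 had 18 different partners, and 18 moved in the partner's direction and 2 against it. In Huh7 it was 7 of 60 (11.7%, background 15.8%), 4 with and 3 against. Across members the Pearson r with the partner was 0.55 in the HepG2-labelled libraries and -0.35 in Huh7, where the Spearman rho was 0.29 and r was 0.32 without ENSG00000180573-AS2. The labels do not say that strand was kept, and without strand, reads from a gene and from an antisense RNA over the same bases cannot be told apart. ENSG00000273542-AS1, labelled as antisense to the histone gene HIST1H4K, was at 40.7, 23.8, 25.4 and 18.8 FPKM, and HIST1H4K at 942, 503, 590 and 465 FPKM. Both ran in the same order over the 4 libraries, as did ENSG00000124635-AS2, with 7.65, 3.84, 3.06 and 2.33 FPKM, and its partner HIST1H2BJ, with 108, 50.4, 47.3 and 32.2 FPKM.

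HIST1H2AC and the higher of its 2 antisense-labelled members did not run in the same order. ENSG00000180573-AS2 was lower after treatment in both lines, as given above, while HIST1H2AC was at 20.7 and 16.7 FPKM in the HepG2-labelled libraries, and in Huh7 at 4.19 and 100.9 FPKM. The other member, ENSG00000180573-AS1, was at 1.01 and 0 FPKM, and in Huh7 at 0.388 and 0.783 FPKM. ENSG00000180573-AS2 starts at base 26124132 and ends at 26138371, and the gene starts at 26124145 and ends at 26139116 in GENCODE 29, so the extents nearly coincide. How the reads of this locus were shared among these models was not tested.

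Across both lines, limma with the cell line as a block tested 2206 rows at 1 FPKM or more in at least 1 library, and called 72 at an adjusted p under 0.05 (3.26%). Of 855 members tested, 25 were called (2.92%), 20 higher and 5 lower, of which 16 carried a coding gene's name, 2 an antisense label and 7 a LINC label. At an unadjusted p under 0.05, 95 members passed (11.1%, background 13.0%). The fit has 1 residual degree of freedom and its prior degrees of freedom were estimated as infinite. Each transcript was therefore tested against the spread that the trend over all rows gives at its mean level, and not its own. All 8 members past 2-fold alike in both lines were called, and the other 17 were past 2-fold in 1 line only. In 5 of the 25 the lines had opposite signs, among them RPS29-OT1 with log2 ratios of -0.48 and 6.27. The largest of the calls, ENSG00000180573-AS2, had a log2 change of -3.61 (limma, adjusted p = 2.3e-18). With a pseudocount of 0.1 FPKM, with a minimum of 5 FPKM, or without the line block, 0 members were called, and without the mean-variance trend 10 were.

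A few members ran over microRNA hairpins, which are cut from longer transcripts. In all, 37 members covered 38 hairpins of the RefSeq table from end to end, 33 of them named for a coding gene and 4 with an antisense label, and 12 of the 37 reached 1 FPKM. CLCN5-OT1 on chromosome X, named for a chloride-proton exchanger, covered the cluster with MIR532, MIR188, MIR500A, MIR362 and MIR660, and was at 1.27, 2.17, 1.60 and 2.06 FPKM. GPER1-OT1 (chr7:996998-1138264) covered MIR339 and was at 5.69, 7.18, 9.76 and 14.6 FPKM. AP4S1-OT1 (chr14:30950915-31026382), named for a subunit of an adaptor complex, covered MIR624 and was at 0.371, 1.10, 5.26 and 8.71 FPKM. Both were higher in Huh7 than in the HepG2-labelled libraries, and both hairpins lie on the strand opposite to the named gene. Of the 4 such members that reached 5 FPKM, the others were higher in the HepG2-labelled libraries, with 6.70, 6.68, 1.98 and 1.90 FPKM for C12orf73-OT1 over MIR3652 and the values above for HLA-C-OT1 over MIR6891. The mature arms are shown for GPER1-OT1 and AP4S1-OT1, which reached the highest value in any 1 library. The seed, bases 2 to 8, is in capitals, and no seed is shared among them.
hsa-miR-339-5p: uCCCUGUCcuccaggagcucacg
hsa-miR-339-3p: uGAGCGCCucgacgacagagccg
hsa-miR-624-5p: uAGUACCAguaccuuguguuca
hsa-miR-624-3p: cACAAGGUauugguauuaccu

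Over the coding table, 897 of 19739 genes (4.54%) had a member named for them. Of 23 genes of ferroptosis and iron handling 1 had such a member, TXNRD1, the cytosolic thioredoxin reductase, which is near that background. Of 11 stress response genes and 13 secreted liver proteins 0 had one, lists too short to be set apart from it. TXNRD1-OT1 (chr12:104273684-104280511) was at 0.407 and 2.93 FPKM in untreated and treated HepG2-labelled cells and listed at 0 in Huh7, while TXNRD1 was at 259 and 286 FPKM, and in Huh7 at 37.5 and 78.4 FPKM. Among genes whose names start with HIST, the single member with a gene's name was HIST1H2AG-OT1. It was higher after treatment in the HepG2-labelled libraries, where HIST1H2AG was at 239 and 149 FPKM. G3BP1-OT1, named for a stress granule protein, was at 0.583 and 1.13 FPKM in those libraries, while G3BP1 was at 123 and 31.8 FPKM, and in Huh7 at 104 and 39.3 FPKM. The highest member by mean level, KRT8-OT1 (chr12:52949216-52952904), was at 75.1, 97.1, 276 and 154 FPKM, and it lies inside the extent of the neighbouring keratin gene KRT18 (chr12:52948871-52952906), which was at 273, 344, 1071 and 584 FPKM. KRT8 was at 890, 749, 2936 and 1227 FPKM, so the member ran in the order of KRT18 over the 4 libraries and not in that of KRT8 in the HepG2-labelled libraries.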

How the data were processed

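RNA was extracted with Trizol and made into libraries with an Illumina TruSeq RNA kit, per the labels' protocols. The authors deposited FPKM per coding gene and per long noncoding transcript, with 1 column per library. Among the tools in the submitters' processing notes are StringTie 1.3.1, which assembles transcripts, HISAT2, Cuffdiff 2.1.1 and Bowtie2 2.2.8, with no roles stated. The sources used here do not give how transcripts were assembled and filtered. No count model was run on FPKM. In single-exon genes the commonest low step of FPKM times length gives a rough depth of 22900000 to 26400000 fragments.

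Ratios were log2((FPKM + 1)/(FPKM + 1)), counted past 2-fold among transcripts at 1 FPKM or more in either library compared. limma 3.58.1 (R 4.3.3), with trend and cell line block, was run on log2(FPKM + 1). Its code was checked on simulated data with the same spread in every row, which cannot show whether the calls on these data are sound. Members with the 5 highest means or most extreme ratios per class were named, as were those on fixed gene lists; genes in the share and microRNA results were picked after their values were seen. The members and lists were chosen with earlier results of these data known. Alternatives were other pseudocounts, minimums, size factors and sums per gene name. The deposited enrichment tables were not used here. Python 3.11.15 was used.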

Additional observations from a re-analysis of the deposited data

How the results depend on the processing

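The limma fit pairs the libraries by cell line, and the labels give no replicate numbers for any other pairing. A pseudocount of 0.1 FPKM gave 141 higher and 47 lower members in the HepG2-labelled libraries, 146 and 74 in Huh7, 13 higher in both lines, and 68 with and 30 against the gene in the HepG2-labelled libraries and 71 and 18 in Huh7. A minimum of 5 FPKM gave 7 and 5, 12 and 4, then 2 higher and 1 lower in both lines, 47 higher and 12 lower in untreated Huh7, and 7 with and 1 against the gene, then 3 and 3. Summing FPKM per gene name gave 11 lower in the HepG2-labelled libraries, and 36 higher and 15 lower in Huh7. At 0.5 FPKM the numbers detected were 568, 770, 879 and 1111, and at 5 FPKM 33, 39, 64 and 78. Chosen after seeing the data, leaving out the scaffolds and 3 stretches gave 20 lower in Huh7 after treatment, 84 higher in untreated Huh7 and 236 detected there, and the gene remainder gave 15 with and 19 against in Huh7. limma called 0 members with a pseudocount of 0.1 FPKM, 0 with a minimum of 5 FPKM, 10 with no trend and 0 without the line block. Of 94 counts under an alternative, 53 stayed within 1.5 times and 41 moved beyond it, so counts past 2-fold depend on how low transcripts are treated. No named member reversed under a pseudocount of 0.1 FPKM or size factors. With size factors KDM2A-OT1 was at 0.98 in the HepG2-labelled libraries, just under 2-fold. A transcript of low FPKM rests on few fragments, and 1 library per group gives no replicate error.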
